A study of Mus musculus with 14 samples.

Results

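Nuclear receptors are transcription factors that bind DNA and, for many of them, a small lipophilic ligand, and this family was followed here in mouse liver. The 38 genes listed were chosen by symbol as members of the family, and 37 of them had at least 1 probe set annotated with that gene alone, out of 22180 genes tested. Nr1h2, which encodes the oxysterol receptor LXRβ, was not analysed here because no probe set names it alone. Each gene is represented by the probe set of exactly 1 symbol with the highest mean over the 14 arrays.

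The samples were livers of male C57Bl/6J mice on a 60% high-fat diet (HFD), fed without restriction from 6 weeks of age for 4 weeks and then studied for 4 more weeks. In the canagliflozin arm (n = 5 arrays) the HFD continued with canagliflozin, an inhibitor of the renal glucose transporter SGLT2, at 30 mg/kg per the sample labels and 25 to 30 mg/kg per the treatment protocol. In the caloric restriction arm (n = 5) mice on the diet ate 15 to 30% less to match the weight of the drug-treated mice. HFD controls (n = 4) stayed on the diet without drug or restriction, so all 3 arms share the obesogenic diet and none holds lean mice. Each array was treated as 1 mouse, which the labels do not state array by array, so the p-values measure the spread between these samples, and the hour of tissue collection is not stated in the labels.

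Most members act through a common mechanism. The receptor sits on short DNA hexamers, singly, as a pair of like receptors or paired with a retinoid X receptor (RXR), and exchanges corepressors for coactivators when its ligand binds. In liver, members sense fatty acids (PPARs), oxysterols (LXRs), bile acids (FXR), drugs (PXR and CAR), glucocorticoids and thyroid hormone, while REV-ERB and ROR receptors form a loop of the circadian clock and HNF4α maintains hepatocyte identity. Ligands, phosphorylation and coregulators change the activity of a receptor without a change of its mRNA, which is the quantity measured here.

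Promoter stretches of Nr0b2 and Thrb are shown first because these genes held the lower values under canagliflozin than under caloric restriction described below, together with 2 short sites of the clock loop, whose receptor Nr1d1 varied most between mice. The sequences are from RefSeq promoter windows of build GRCm38.p6, which run from 250 bases before to 50 bases after a gene's annotated start, and 35 of the 38 members had such a window. Lower case is plain sequence and capitals mark a motif: the receptor hexamer AGGTCA, the ROR and REV-ERB core TAGGTCA, which contains that hexamer, or the E-box CACGTG bound by clock factors. Positions count the start base as 0. Nr0b2 at chr4:133553126-133553375 (plus strand) holds an E-box at position -195. Thrb has 2 windows, of which the first, at chr14:17660710-17660959 (plus strand), holds the hexamer at -184 and the second, at chr14:17981394-17981643 (plus strand), holds an E-box at -193. The 30-base site of Nr1d2 at chr14:18239166-18239195 (minus strand) holds the hexamer at -77. Arntl encodes the clock activator BMAL1, a textbook target of REV-ERBα, and its 30-base site at chr7:113207530-113207559 (plus strand) holds the ROR and REV-ERB core at 30.
Nr0b2: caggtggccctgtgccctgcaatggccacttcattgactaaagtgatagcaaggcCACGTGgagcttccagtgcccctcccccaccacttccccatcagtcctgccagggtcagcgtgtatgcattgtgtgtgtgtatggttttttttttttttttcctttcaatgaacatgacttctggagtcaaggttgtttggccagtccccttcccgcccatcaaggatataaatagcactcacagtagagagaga
Thrb, first window: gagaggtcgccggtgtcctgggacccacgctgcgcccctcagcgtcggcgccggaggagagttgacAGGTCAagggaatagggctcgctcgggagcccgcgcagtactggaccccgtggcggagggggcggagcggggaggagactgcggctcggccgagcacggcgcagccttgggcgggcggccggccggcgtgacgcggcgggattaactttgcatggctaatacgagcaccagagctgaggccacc
Thrb, second window: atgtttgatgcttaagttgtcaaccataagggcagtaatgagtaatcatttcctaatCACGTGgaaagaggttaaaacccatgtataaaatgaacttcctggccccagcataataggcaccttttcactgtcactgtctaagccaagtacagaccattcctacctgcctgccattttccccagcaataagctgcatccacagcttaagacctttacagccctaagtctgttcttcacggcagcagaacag
Nr1d2: gattggaagaagAGGTCAggaccgctcgtt
Arntl: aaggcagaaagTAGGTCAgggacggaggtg

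The hexamer AGGTCA, searched on both strands, was present in windows of 10 of the 35 members (28.6%), against 18.1% of 27025 genes with a window. A gene can have several windows, and the 35 members had 54 windows while the 27025 genes had 32851, so shares of genes favour the members. Of single windows, 11 of the 54 held the hexamer (20.4%), against 16.3% of all windows. The E-box was present in 4 members, namely Nr0b2, Nr1i3, Rara and Thrb (11.4%, against 8.09% of genes). The core TAGGTCA was in 0 members (2.97% of genes), the D-box TTANGTAA in 0 members (2.72% of genes), and the cAMP response element TGACGTCA in 1 member, Nr6a1 (2.03% of genes). These matches describe letters in a window and say nothing of whether a factor binds there.

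The arrays were alike in scale, with medians of 4.07 to 4.13 on the log2 scale and correlations of 0.986 to 0.992 over genes for any pair. Values are log2 RMA values throughout, and differences are log2 differences with standard errors (SE) from limma. A difference was called at a limma p under 0.05 after Benjamini-Hochberg adjustment over all 22180 genes. The 7 measured hepatocyte markers, among them Alb and Ttr, had mean levels of 12.72 to 12.81 in canagliflozin arrays, 12.76 to 12.83 in restricted arrays and 12.74 to 12.82 in control arrays. Over 6 lists of markers of other liver and contaminating cell types, 0 of 38 measured genes passed in any comparison. Of all genes, 0.0% passed in each comparison with HFD control and 0.00451% between the treated arms. This count therefore does not show that cell composition was alike. The 8 macrophage markers had mean levels of 6.59 to 7.13 in canagliflozin arrays. They had 6.03 to 6.96 in restricted arrays and 6.20 to 7.15 in control arrays, so arrays of 1 arm differed. Hgf and Lep between canagliflozin and HFD control, and Sox9 and Plin1 between canagliflozin and caloric restriction, had an unadjusted p under 0.05.

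No nuclear receptor gene passed the threshold in any of the 3 comparisons. For canagliflozin against HFD control 0 of 37 members passed, as did 0.0% of all genes, and for caloric restriction against HFD control the count was again 0 of 37 beside 0.0% of all genes. For canagliflozin against caloric restriction 0 of 37 members passed beside 0.00451% of all genes, which is 1 gene, Rtkn, outside the family. At an unadjusted p under 0.05 the members were 3 of 37 for canagliflozin against HFD control (6.51% of all genes), 1 of 37 for caloric restriction against HFD control (3.93%) and 2 of 37 for canagliflozin against caloric restriction (6.05%). Those members were Nr3c1, Hnf4g and Thrb in the first comparison, Hnf4g in the second and Nr0b2 and Thrb in the third, and their shares lie close to those of all genes. In bulk liver, fewer cells of a type and less RNA per cell cannot be told apart.

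The intervals bound how far receptor mRNA could have differed. For canagliflozin against HFD control the members ranged from -0.26 (Esr1) to 0.40 (Pparg), with 15 higher and 22 lower means and adjusted p from 0.731 to 1.0. The 95% confidence interval lay within 1.5-fold either way for 30 of the 37 members, compared with 92.0% of all genes, and within 2-fold for 37 of 37. For caloric restriction against HFD control the members ranged from -0.32 (Hnf4g) to 0.36 (Nr0b2), with 23 higher and 14 lower, and 32 intervals lay within 1.5-fold, compared with 93.9% of all genes, and 37 within 2-fold. For canagliflozin against caloric restriction the range was -0.54 (Nr0b2) to 0.28 (Pparg), with 13 higher and 24 lower, 32 intervals within 1.5-fold, again beside 93.9% of all genes, and 36 within 2-fold. The exception to the 2-fold bound was Nr0b2. The median size of a difference, regardless of sign, was 0.079 among members and 0.089 among all genes for canagliflozin against HFD control, 0.102 and 0.081 for caloric restriction against HFD control, and 0.068 and 0.085 for canagliflozin against caloric restriction. The first 2 comparisons share the 4 control arrays, so their values for a gene are not independent.

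**Figure D1:**
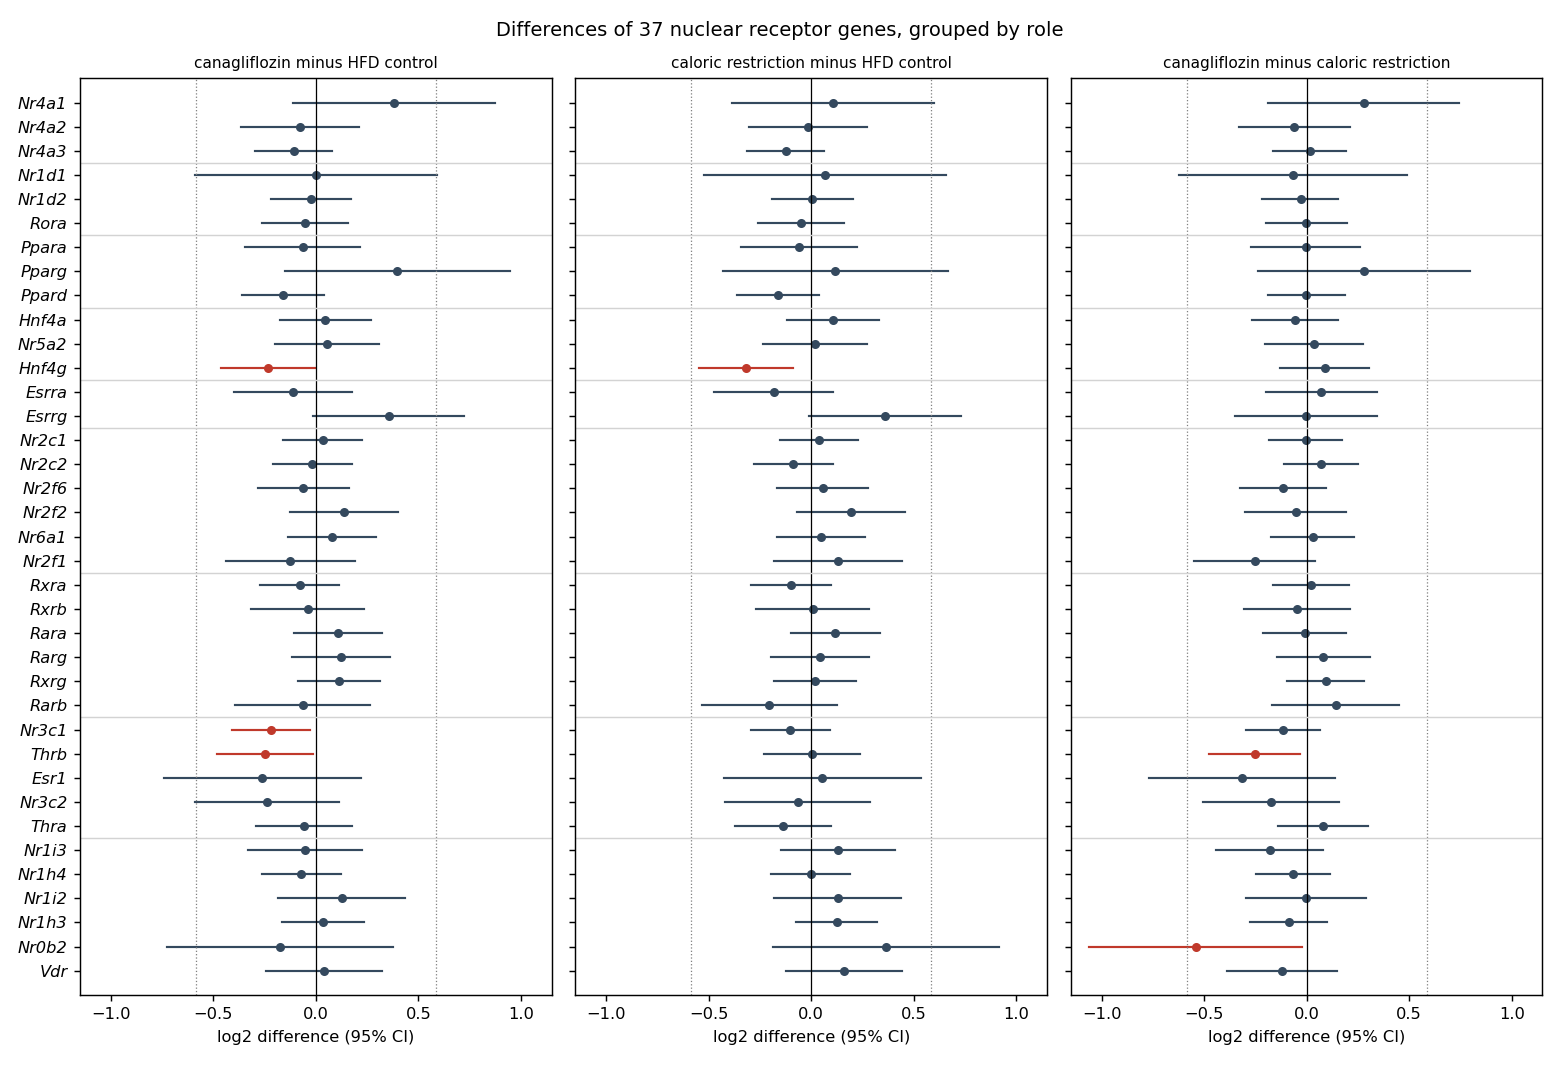
Log2 difference (x axis) with its 95% confidence interval for each of 37 nuclear receptor genes (y axis, grouped by role) for canagliflozin minus HFD control, caloric restriction minus HFD control and canagliflozin minus caloric restriction. Red marks an unadjusted p under 0.05, dotted lines mark 1.5-fold, and all intervals of canagliflozin minus HFD control lie within 2-fold.

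Among the sensors of sterols, bile acids and foreign compounds, Nr0b2 stood out by its spread and Nr1h3, Nr1h4, Nr1i2 and Nr1i3 differed little between groups. Nr0b2 encodes SHP, a receptor without a DNA-binding domain that FXR induces and that represses bile acid synthesis. Nr0b2 measured 7.76, 6.72, 7.57, 6.58 and 6.55 under canagliflozin, 7.85, 7.51, 7.19, 8.04 and 7.30 under caloric restriction, and 7.53, 6.59, 7.22 and 7.53 in HFD controls. In 3 of the 5 canagliflozin mice the value lay below every restricted mouse, the other 2 lay within the restricted range, and 1 control was as low as the low drug-treated mice. The difference was -0.54 ± 0.25 (SE) between canagliflozin and caloric restriction, which is 1.46-fold lower (limma unadjusted p = 0.0419, adjusted p = 0.811, 95% interval -1.06 to -0.02). Against HFD control it was -0.18 ± 0.26 under canagliflozin and 0.36 ± 0.26 under caloric restriction (adjusted p = 0.947 and 0.999). Without canagliflozin replicate 1 the difference between the treated arms was -0.72, and without canagliflozin replicate 5 it was -0.42, and neither passed the adjusted threshold.

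Nr1h4 encodes FXR, the bile acid receptor. Nr1h4 measured 9.15, 9.46, 9.19, 9.29 and 9.20 under canagliflozin, 9.29, 9.29, 9.34, 9.22 and 9.49 under caloric restriction, and 9.34, 9.35, 9.21 and 9.42 in HFD controls. All 3 groups overlapped within a narrow range, and the differences were -0.07 ± 0.09 for canagliflozin against HFD control and -0.07 ± 0.09 for canagliflozin against caloric restriction. Nr1h3 encodes LXRα, the oxysterol receptor that drives cholesterol efflux and lipogenesis. Nr1h3 measured 7.72, 7.86, 7.82, 7.90 and 7.81 under canagliflozin, 7.90, 7.85, 8.10, 7.92 and 7.81 under caloric restriction, and 7.56, 7.78, 7.93 and 7.89 in HFD controls. HFD control replicate 1 was the lowest of the 14 arrays and the groups overlapped, with a difference of 0.04 ± 0.10 for canagliflozin against HFD control and 0.12 ± 0.10 for caloric restriction against HFD control.

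Nr1i2 encodes PXR, which induces drug-metabolising enzymes on binding xenobiotics. Nr1i2 measured 8.80, 9.09, 8.77, 9.17 and 8.96 under canagliflozin, 9.04, 8.74, 8.69, 9.08 and 9.25 under caloric restriction, and 8.52, 8.60, 9.10 and 9.10 in HFD controls. The controls fell into a lower and a higher pair that spanned most of the treated arrays, and the difference was 0.13 ± 0.15 under canagliflozin and 0.13 ± 0.15 under caloric restriction, each against HFD control. Nr1i3 encodes CAR, the other xenobiotic receptor. Nr1i3 measured 10.12, 10.10, 10.21, 9.90 and 10.03 under canagliflozin, 10.27, 10.46, 10.00, 10.26 and 10.28 under caloric restriction, and 9.70, 10.04, 10.33 and 10.43 in HFD controls. Controls again spread more widely than either treated arm, and canagliflozin differed from caloric restriction by -0.18 ± 0.13 (adjusted p = 0.877). Vdr, the vitamin D receptor, had a mean under 5 and lay between 3.92 and 4.73 over all arrays. All 6 measured sensors had lower means under canagliflozin than under caloric restriction (median -0.104), where 51.0% of all genes were lower. Of the 6, only Nr0b2 had an unadjusted limma p under 0.05. The Nr1i2 difference was -0.002 ± 0.14 and took the opposite sign in 8 of 20 alternatives, so the count of 6 does not show a shared shift. Against HFD control the sensors were 3 higher and 3 lower under canagliflozin, and 5 higher and 1 lower under caloric restriction.

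Over the coregulator, ligand and target gene lists, 134 distinct genes were measured and 0 passed the threshold in any comparison. Of 8 measured FXR and SHP targets, 4 were higher and 4 lower for canagliflozin against HFD control, 5 higher and 3 lower for caloric restriction against HFD control, and 3 higher and 5 lower for canagliflozin against caloric restriction (medians -0.001, 0.033 and -0.014). The list joins induced and repressed genes, so opposite responses could cancel in these counts and medians. Abcb4, the canalicular phospholipid exporter, averaged 10.01 ± 0.20 under canagliflozin, 9.62 ± 0.09 under caloric restriction and 9.74 ± 0.09 in HFD controls (SD, n = 5, 5 and 4). It differed by 0.39 ± 0.10 between canagliflozin and caloric restriction (limma unadjusted p = 0.000826, adjusted p = 0.614). Cyp8b1, which makes the bile acid precursor of cholic acid, averaged 10.65 ± 0.46 under canagliflozin, 10.09 ± 0.40 under caloric restriction and 10.00 ± 0.53 in HFD controls and differed by 0.65 ± 0.26 for canagliflozin against HFD control (adjusted p = 0.709). Both genes had their highest mean in the arm in which Nr0b2 had its lowest, and their relation with Nr0b2 was not tested.

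Of 10 measured LXR targets, 4 were higher and 6 lower for canagliflozin against HFD control, 6 higher and 4 lower for caloric restriction against HFD control, and 3 higher and 7 lower for canagliflozin against caloric restriction (medians -0.025, 0.104 and -0.118). Scd1, the stearoyl-CoA desaturase, averaged 11.46 ± 0.79 under canagliflozin, 12.45 ± 0.58 under caloric restriction and 12.50 ± 0.31 in HFD controls. It differed by -1.04 ± 0.33 for canagliflozin against HFD control and by -0.99 ± 0.32 against caloric restriction (limma adjusted p = 0.596 and 0.683). Srebf1, which encodes the lipogenic factor SREBP-1, differed by -0.62 ± 0.24 and -0.50 ± 0.23 in the same 2 comparisons (adjusted p = 0.708 and 0.811), beside the interval of -0.16 to 0.24 for the receptor gene Nr1h3 against HFD control. Scd1 and Srebf1 are also induced by insulin, so the list does not read LXR activity alone.

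Of 11 measured CAR and PXR targets, 4 were higher and 7 lower for canagliflozin against HFD control, 9 higher and 2 lower for caloric restriction against HFD control, and 2 higher and 9 lower for canagliflozin against caloric restriction (medians -0.063, 0.169 and -0.197). Cyp2c55, a cytochrome P450 inducible by xenobiotics in mouse, averaged 5.42 ± 0.54 under canagliflozin, 6.09 ± 0.27 under caloric restriction and 6.03 ± 0.16 in HFD controls. It differed by -0.61 ± 0.21 for canagliflozin against HFD control and by -0.67 ± 0.20 against caloric restriction (limma adjusted p = 0.634 and 0.683). Ces2a, a carboxylesterase, differed by -0.32 ± 0.11 between canagliflozin and caloric restriction (adjusted p = 0.709). Cyp2 and Ces2 genes have close paralogs whose sequence their probes may share, so these values are uncertain.

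Among the clock receptors, Nr1d1 varied widely between mice of the same arm, and Nr1d2 and Rora did not. Nr1d1 encodes REV-ERBα, a haem-binding repressor whose mRNA cycles strongly over the day. Nr1d1 measured 8.96, 8.02, 7.56, 8.18 and 8.17 under canagliflozin, 8.27, 9.06, 8.43, 7.90 and 7.56 under caloric restriction, and 7.72, 7.99, 8.68 and 8.32 in HFD controls. Values spanned more than 2-fold within canagliflozin and within caloric restriction, and the arms overlapped almost fully. The within-group SD was 0.507, the highest of the 37 members and at percentile 99.1 of all genes, so that the interval for canagliflozin against HFD control was -0.59 to 0.59 around a difference of 0.00 ± 0.28. Nr1d1 overlaps Thra on chromosome 11 in the RefSeq gene table, and whether their probe sets share signal was not tested.

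Nr1d2 encodes REV-ERBβ, a related repressor. Nr1d2 measured 7.94, 8.02, 7.85, 7.94 and 8.0 under canagliflozin, 8.0, 8.04, 8.11, 7.69 and 8.05 under caloric restriction, and 8.07, 7.90, 7.98 and 7.95 in HFD controls. Caloric restriction replicate 4 lay below the other 13 arrays, which held within 7.85 to 8.11. Rora encodes RORα, an activator at the same sites as the REV-ERBs. Rora measured 7.09, 7.50, 7.35, 7.33 and 7.21 under canagliflozin, 7.19, 7.20, 7.34, 7.48 and 7.26 under caloric restriction, and 7.19, 7.41, 7.41 and 7.37 in HFD controls. The groups overlapped, and the differences against HFD control were -0.05 ± 0.10 under canagliflozin and -0.05 ± 0.10 under caloric restriction, with intervals of -0.26 to 0.16 and -0.26 to 0.16.

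Of 15 measured clock genes of the REV-ERB and ROR loop, 7 were higher and 8 lower for canagliflozin against HFD control, 10 higher and 5 lower for caloric restriction against HFD control, and 4 higher and 11 lower for canagliflozin against caloric restriction (medians -0.010, 0.090 and -0.092). Genes of the loop need not move in 1 direction, so these counts and medians do not read a shift of the clock. Elovl3, a fatty acid elongase with a strong daily rhythm, averaged 11.00 ± 0.27 under canagliflozin, 10.64 ± 0.72 under caloric restriction and 9.83 ± 0.55 in HFD controls. It differed by 1.17 ± 0.30 under canagliflozin and 0.81 ± 0.30 under caloric restriction, each against HFD control (limma adjusted p = 0.559 and 0.999). The period gene Per3 differed by -0.31 ± 0.13 and Insig2, which retains the SREBP complex, by 0.37 ± 0.15 for canagliflozin against HFD control. Between canagliflozin and caloric restriction, the repressor gene Bhlhe40 differed by -0.40 ± 0.16, the transcription factor gene Tef by -0.27 ± 0.11 and Per3 by -0.26 ± 0.12 (adjusted p = 0.801, 0.802 and 0.811). None of these clock-loop genes passed.

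**Figure D2:**
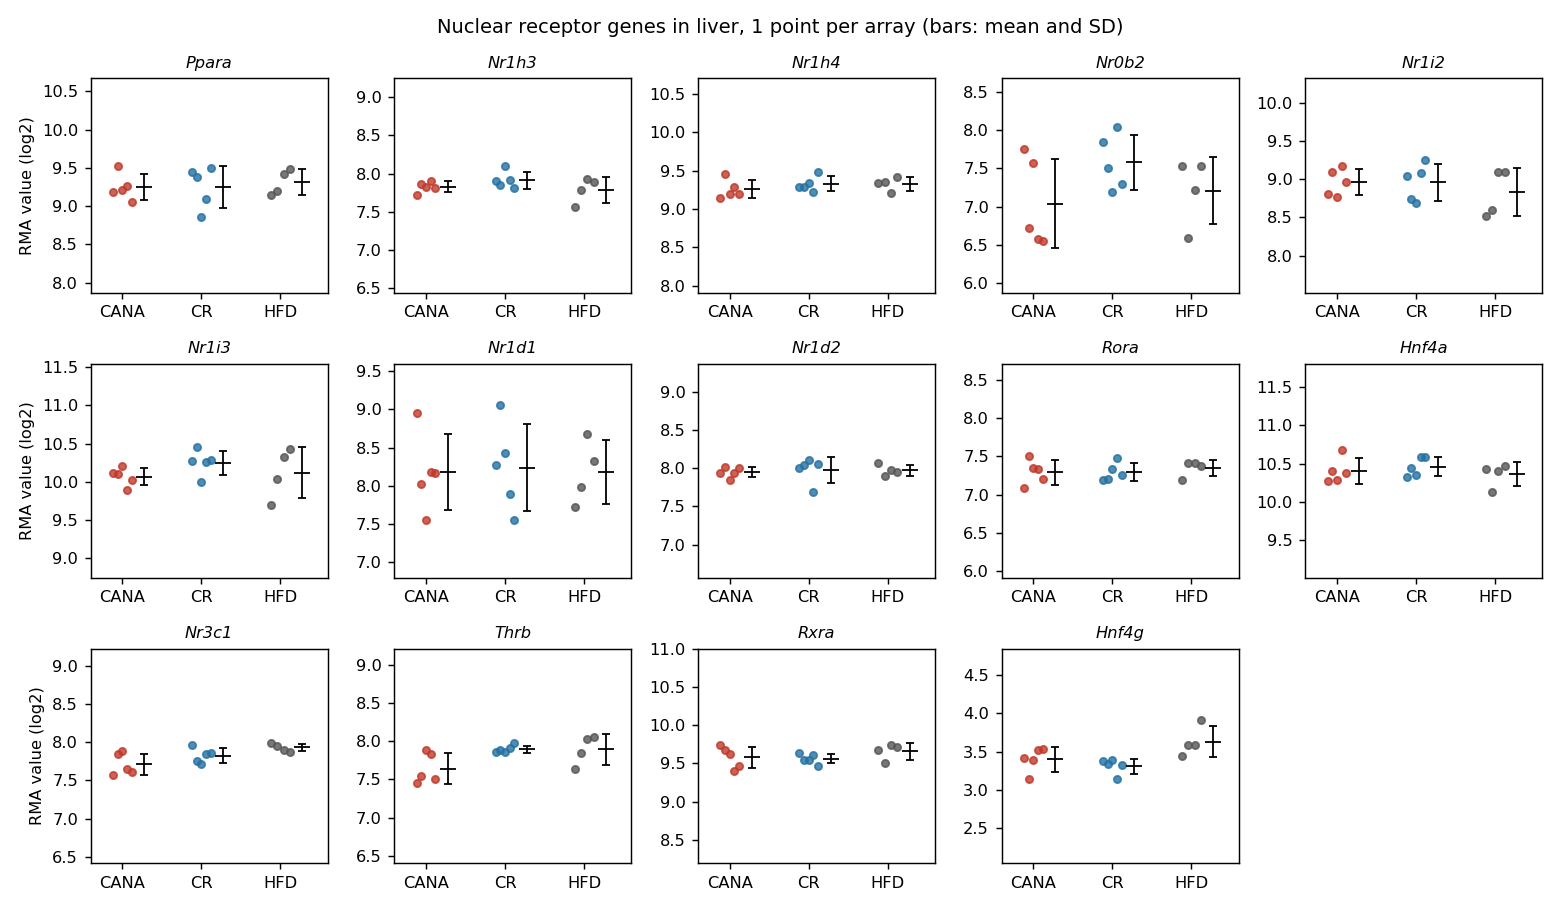
RMA value (log2, y axis) of 14 nuclear receptor genes in each array of the canagliflozin (CANA, n = 5), caloric restriction (CR, n = 5) and HFD control (HFD, n = 4) arms, with points for arrays and bars for the mean and SD. Every y axis spans the same log2 range, so the spread of Nr0b2 and Nr1d1 can be compared with that of Nr1h4, Nr1d2 and Rxra.

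Among the fatty acid receptors, Ppara had close means in the 3 arms, while most of its target genes had higher means under canagliflozin. Ppara encodes PPARα, which fatty acids activate and which drives fatty acid oxidation and ketogenesis in the fasted liver. Ppara measured 9.19, 9.53, 9.21, 9.26 and 9.05 under canagliflozin, 9.45, 9.38, 8.86, 9.09 and 9.50 under caloric restriction, and 9.14, 9.20, 9.42 and 9.49 in HFD controls. The 3 groups overlapped, with means of 9.25 under canagliflozin, 9.25 under caloric restriction and 9.31 in HFD controls. The interval of the difference was -0.35 to 0.22 for canagliflozin against HFD control, -0.34 to 0.22 for caloric restriction against HFD control and -0.27 to 0.26 for canagliflozin against caloric restriction. All 3 intervals lay within 1.5-fold either way, which bounds the difference without showing that the levels were equal.

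Of 14 measured PPARα targets, 13 had higher means and 8 an unadjusted p under 0.05 for canagliflozin against HFD control (median 0.433, against -0.0008 over all genes). For caloric restriction against HFD control 11 of 14 were higher and 0 had an unadjusted p under 0.05 (median 0.126), and for canagliflozin against caloric restriction 14 of 14 were higher and 5 had one (median 0.346). Cyp4a14, a fatty acid omega-hydroxylase, measured 9.89, 10.69, 8.94, 12.03 and 10.78 under canagliflozin, 9.62, 8.43, 5.86, 8.10 and 11.07 under caloric restriction, and 5.40, 6.71, 8.94 and 8.31 in HFD controls. It varied over several log2 units within every arm, and near-identical Cyp4a copies make its value uncertain. Acot1, a cytosolic acyl-CoA thioesterase, averaged 7.17 ± 0.32 under canagliflozin, 6.36 ± 0.54 under caloric restriction and 6.22 ± 0.48 in HFD controls and differed by 0.95 ± 0.25 for canagliflozin against HFD control and 0.81 ± 0.24 against caloric restriction (limma adjusted p = 0.559 and 0.683). Slc22a5, the carnitine transporter, differed by 0.66 ± 0.22 and 0.57 ± 0.21 in these comparisons, and Plin2, a lipid droplet coat protein, by 0.29 ± 0.12 between canagliflozin and caloric restriction. No target passed the adjusted threshold, and the list was drawn up with earlier results of these arrays known.

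The other 2 PPAR genes were named after their values were seen. Pparg encodes PPARγ, the adipogenic receptor that is also induced in fatty liver, and measured 5.65, 6.23, 6.00, 6.52 and 6.64 under canagliflozin, 6.08, 5.90, 5.49, 5.37 and 6.81 under caloric restriction, and 5.31, 5.77, 6.27 and 5.90 in HFD controls. All arms overlapped, and the difference of 0.40 ± 0.26 for canagliflozin against HFD control was the highest among members and within the spread (limma adjusted p = 0.835). Leaving out HFD control replicate 1 gave a difference of 0.23. The 4 measured adipocyte markers had mean levels of 3.57 to 3.84 in canagliflozin arrays, 3.59 to 3.86 in restricted arrays and 3.72 to 3.88 in control arrays, beside this value. Ppard encodes PPARδ, a broadly expressed fatty acid receptor, and measured 6.05, 5.75, 5.68, 5.98 and 5.67 under canagliflozin, 5.86, 5.89, 5.88, 5.73 and 5.75 under caloric restriction, and 6.06, 5.98, 5.95 and 5.95 in HFD controls. All 5 restricted mice lay below all 4 controls, a difference of -0.16 ± 0.10 (adjusted p = 0.999). Non-overlap of restricted and control arrays occurred for 2 of 37 members, Ppard and Hnf4g, and for 1.4% of all genes. It occurred for 0 of 37 members between canagliflozin and HFD control (1.95% of all genes) and 0 of 37 between canagliflozin and caloric restriction (0.929%).

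Coregulators were measured beside the receptors, and 0 of 26 passed. Of these genes, 19 were higher and 7 lower for canagliflozin against HFD control, 14 higher and 12 lower for caloric restriction against HFD control, and 15 higher and 11 lower for canagliflozin against caloric restriction (medians 0.038, 0.053 and 0.002). Ppargc1a, which encodes PGC-1α, the coactivator of PPARα, ERRα and HNF4α in fasting, measured 7.13, 7.52, 6.66, 8.52 and 8.01 under canagliflozin, 6.56, 6.74, 6.08, 7.26 and 6.89 under caloric restriction, and 6.08, 6.60, 6.51 and 6.53 in HFD controls. Every canagliflozin mouse lay above every control, while canagliflozin and caloric restriction overlapped. The difference was 1.14 ± 0.29 for canagliflozin against HFD control and 0.86 ± 0.27 for canagliflozin against caloric restriction (limma adjusted p = 0.559 and 0.683). Cited2, a transcriptional coregulator, measured 8.05, 7.21, 8.04, 7.96 and 8.11 under canagliflozin, 8.51, 8.34, 8.19, 8.92 and 7.87 under caloric restriction, and 7.55, 7.65, 7.83 and 8.44 in HFD controls. It had its highest mean under caloric restriction, by 0.50 ± 0.22 against HFD control, and canagliflozin differed from caloric restriction by -0.49 ± 0.21 (adjusted p = 0.999 and 0.805).

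Of the hepatocyte identity receptors, Hnf4a and Nr5a2 had close means in the 3 arms and Hnf4g, a dim gene, had its highest mean in HFD controls. Hnf4a encodes HNF4α, which sustains the hepatocyte programme. Hnf4a measured 10.27, 10.40, 10.29, 10.68 and 10.38 under canagliflozin, 10.33, 10.44, 10.35, 10.59 and 10.58 under caloric restriction, and 10.43, 10.13, 10.40 and 10.47 in HFD controls. The arms overlapped, and the interval was -0.18 to 0.27 for canagliflozin against HFD control and -0.12 to 0.33 for caloric restriction against HFD control. Nr5a2, which encodes LRH-1, a regulator of bile acid and steroid genes, lay between 8.66 and 9.22 over all arrays. Hnf4g encodes HNF4γ, a relative of HNF4α best known from intestine. Hnf4g measured 3.42, 3.14, 3.39, 3.52 and 3.53 under canagliflozin, 3.38, 3.34, 3.39, 3.14 and 3.32 under caloric restriction, and 3.44, 3.59, 3.59 and 3.92 in HFD controls. All 5 restricted mice lay below all 4 controls, although by less than 0.1 between the nearest arrays, and the canagliflozin mice overlapped both arms.

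Caloric restriction differed from HFD control in Hnf4g by -0.32 ± 0.11 (limma unadjusted p = 0.00911, adjusted p = 0.999) and canagliflozin from HFD control by -0.23 ± 0.11 (unadjusted p = 0.0474, adjusted p = 0.76). Without HFD control replicate 4, the highest array, the differences were -0.22 and -0.14. Hnf4g had a mean of 3.44, below the array medians, and is 1 of 10 members with a mean under 5, whose signal over background was not analysed here. Of 10 measured HNF4A targets, 3 were higher and 7 lower for canagliflozin against HFD control, 6 higher and 4 lower for caloric restriction against HFD control, and 3 higher and 7 lower for canagliflozin against caloric restriction (medians -0.032, 0.011 and -0.027). G6pc, the glucose-6-phosphatase that releases glucose, averaged 11.77 ± 0.33 under canagliflozin, 11.43 ± 0.20 under caloric restriction and 11.21 ± 0.21 in HFD controls and differed by 0.56 ± 0.15 for canagliflozin against HFD control. Apoc3, an apolipoprotein that slows triglyceride clearance, differed by -0.22 ± 0.08 for canagliflozin against caloric restriction (limma adjusted p = 0.559 and 0.791 in the order named).

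The retinoid receptors had overlapping values in the 3 arms. Rxra encodes RXRα, the shared partner of PPARs, LXRs, FXR, PXR and CAR. Rxra measured 9.74, 9.68, 9.62, 9.40 and 9.47 under canagliflozin, 9.64, 9.54, 9.55, 9.61 and 9.47 under caloric restriction, and 9.68, 9.50, 9.74 and 9.72 in HFD controls. Its within-group SD of 0.11 lay at percentile 8.19 of all genes. Its interval was -0.27 to 0.12 for canagliflozin against HFD control and -0.29 to 0.09 for caloric restriction against HFD control. Rxrb lay between 5.93 and 6.58, Rara between 5.98 and 6.43 and Rarg between 4.79 and 5.33 over all arrays, while Rarb and Rxrg had means under 5. Of the 6 retinoid receptors, 3 were higher and 3 lower for canagliflozin against HFD control, 4 higher and 2 lower for caloric restriction against HFD control, and 4 higher and 2 lower for canagliflozin against caloric restriction.

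Of 5 measured retinoic acid and vitamin D targets, 5 were lower for canagliflozin against HFD control, 2 for caloric restriction against HFD control and 5 for canagliflozin against caloric restriction (medians -0.177, 0.008 and -0.201). Cyp26a1, which degrades retinoic acid and is induced by it, averaged 3.50 ± 0.49 under canagliflozin, 4.08 ± 0.38 under caloric restriction and 3.84 ± 0.18 in HFD controls. It differed by -0.58 ± 0.20 between canagliflozin and caloric restriction (limma adjusted p = 0.738). These means lie near or below the array medians, and signal over background was not analysed. Of 14 measured ligand-metabolising enzymes and carriers, 6 were higher and 8 lower in each of the 3 comparisons (medians -0.056, -0.002 and -0.099). Rdh16, a retinol dehydrogenase, differed by 0.55 ± 0.23 for canagliflozin against HFD control, with adjusted p = 0.738. Hsd11b1, which regenerates active glucocorticoid, differed by -0.22 ± 0.10 between canagliflozin and caloric restriction, and Hsd11b2, which inactivates it, by 0.25 ± 0.11 for caloric restriction against HFD control (limma adjusted p = 0.818 and 0.999). Hsd11b2 averaged 4.44 under caloric restriction and 4.20 in HFD controls, also near the array medians.

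Among steroid and thyroid hormone receptors, all 5 had lower means under canagliflozin than in HFD controls, with a median of -0.238, where 50.3% of all genes were lower. Thrb encodes TRβ, the main thyroid hormone receptor of liver. Thrb measured 7.45, 7.54, 7.88, 7.83 and 7.50 under canagliflozin, 7.85, 7.88, 7.85, 7.91 and 7.97 under caloric restriction, and 7.63, 7.84, 8.03 and 8.05 in HFD controls. In 4 of 5 canagliflozin mice Thrb lay below every restricted mouse, while canagliflozin and control arrays overlapped. The difference was -0.25 ± 0.11 against HFD control, 1.19-fold lower (limma unadjusted p = 0.0391, adjusted p = 0.751), and -0.25 ± 0.11 against caloric restriction (unadjusted p = 0.027, adjusted p = 0.801). Caloric restriction differed from HFD control by 0.01 ± 0.11, with an interval of -0.23 to 0.24. Over leaving out each array, the canagliflozin differences stayed between -0.34 and -0.19 against HFD control and between -0.31 and -0.21 against caloric restriction. Thra, the other thyroid hormone receptor gene, had a mean under 5 and lay between 4.27 and 4.86.

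Of 5 measured thyroid hormone receptor targets, 4 were lower for canagliflozin against HFD control, 2 for caloric restriction against HFD control and 5 for canagliflozin against caloric restriction (medians -0.230, 0.083 and -0.098). Thrsp, a lipogenic protein induced by thyroid hormone and by carbohydrate, averaged 10.68 ± 0.64 under canagliflozin, 11.50 ± 0.33 under caloric restriction and 11.41 ± 0.20 in HFD controls. It differed by -0.73 ± 0.25 for canagliflozin against HFD control and by -0.82 ± 0.24 against caloric restriction (limma adjusted p = 0.612 and 0.683). Dio1, the deiodinase that activates thyroid hormone, averaged 10.45 ± 0.20 under canagliflozin, 10.55 ± 0.11 under caloric restriction and 10.68 ± 0.11 in HFD controls and differed by -0.23 ± 0.11 for canagliflozin against HFD control (adjusted p = 0.758).

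Nr3c1 encodes the glucocorticoid receptor. Nr3c1 measured 7.57, 7.84, 7.88, 7.65 and 7.61 under canagliflozin, 7.96, 7.75, 7.71, 7.85 and 7.86 under caloric restriction, and 7.99, 7.95, 7.89 and 7.87 in HFD controls. In 4 of 5 canagliflozin mice Nr3c1 lay below all 4 controls, and the remaining mouse lay within the control range. The difference was -0.22 ± 0.09 against HFD control, 1.16-fold lower (limma unadjusted p = 0.0279, adjusted p = 0.731), and -0.26 to -0.18 over leaving out each array. Caloric restriction differed from HFD control by -0.10 ± 0.09, and canagliflozin from caloric restriction by -0.12 ± 0.09. Nr3c2, the mineralocorticoid receptor gene, and Esr1, the oestrogen receptor α gene, had wider intervals (-0.59 to 0.12 and -0.74 to 0.22 for canagliflozin against HFD control). Without canagliflozin replicate 4 the Nr3c2 difference was -0.09, in place of -0.24, and without canagliflozin replicate 1 that of Esr1 was -0.08, in place of -0.26. Esr1 lay between 6.28 and 7.53 under canagliflozin, 6.88 and 8.06 under caloric restriction, and 7.06 and 7.47 in HFD controls.

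Most targets of the glucocorticoid receptor had higher means under canagliflozin than in HFD controls, beside the lower mean of Nr3c1. Of 16 measured genes, 12 were higher and 4 lower for canagliflozin against HFD control, 13 higher and 3 lower for caloric restriction against HFD control, and 9 higher and 7 lower for canagliflozin against caloric restriction (medians 0.215, 0.163 and 0.060). Igfbp1, an insulin-repressed growth factor binding protein, averaged 10.73 ± 1.39 under canagliflozin, 9.38 ± 0.95 under caloric restriction and 8.64 ± 0.27 in HFD controls and differed by 2.09 ± 0.55 for canagliflozin against HFD control. Pck1, the gluconeogenic PEP carboxykinase, differed by 0.36 ± 0.10 and Tat, the tyrosine aminotransferase, by 0.40 ± 0.13 in that comparison (limma adjusted p = 0.559, 0.559 and 0.598 for Igfbp1, Pck1 and Tat). Ddit4, an inhibitor of mTORC1, averaged 7.0 ± 0.58 under canagliflozin, 6.92 ± 0.56 under caloric restriction and 6.09 ± 0.44 in HFD controls. It differed from HFD control by 0.91 ± 0.29 under canagliflozin and 0.82 ± 0.29 under caloric restriction (limma adjusted p = 0.601 and 0.999), and the treated arms differed from each other by 0.08 ± 0.28. The clock gene Per1 differed from HFD control by 0.26 ± 0.17 under canagliflozin and 0.37 ± 0.17 under caloric restriction (adjusted p = 0.835 and 0.999). Several of these genes also answer to insulin, glucagon or the clock, and none passed.

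**Figure D3:**
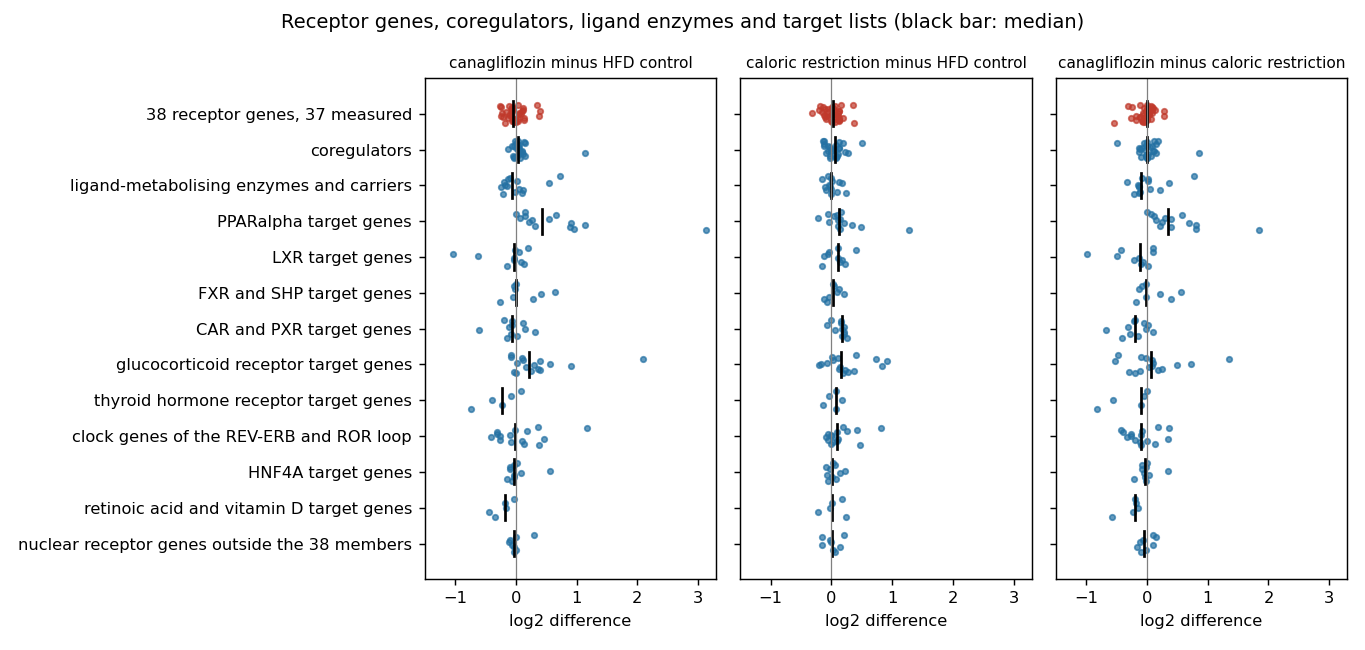
Log2 difference (x axis) of the 37 measured receptor genes (red) and of the measured genes of 12 lists (blue) for canagliflozin minus HFD control, caloric restriction minus HFD control and canagliflozin minus caloric restriction, with 1 point per gene and a black bar for the median. For canagliflozin minus HFD control the receptors span -0.26 to 0.40 with a median of -0.052, and the PPARα targets have a median of 0.433. No plotted gene passed the adjusted threshold, and the lists were drawn up with earlier results of these arrays known.

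The remaining members were described by range, and those named here were chosen after their values were seen. Esrrg, the gene of the oestrogen-related receptor ERRγ, a regulator of oxidative metabolism, measured 5.27, 5.57, 5.81, 5.66 and 5.16 under canagliflozin, 5.60, 5.35, 5.24, 5.61 and 5.69 under caloric restriction, and 4.60, 5.14, 5.17 and 5.64 in HFD controls. HFD control replicate 1 was low and the arms overlapped, with differences of 0.36 ± 0.18 under canagliflozin and 0.36 ± 0.18 under caloric restriction against the same controls (limma unadjusted p = 0.058 and 0.0553), and 0.18 in both without that control. Esrra, the gene of ERRα and a partner of PGC-1α, lay between 6.13 and 7.09, with an interval of -0.40 to 0.18 for canagliflozin against HFD control beside the Ppargc1a values above. The immediate-early NR4A receptors were dim: Nr4a1 measured 4.64, 5.05, 4.76, 6.25 and 5.09 under canagliflozin, 4.92, 5.08, 4.99, 4.84 and 4.58 under caloric restriction, and 4.46, 4.98, 4.86 and 4.80 in HFD controls. Canagliflozin replicate 4 stood above the other 13 arrays, and the difference against HFD control of 0.38 ± 0.23 was not past the threshold (adjusted p = 0.821) and was 0.11 without that array. Nr4a2 lay between 3.66 and 4.39 and Nr4a3 between 3.29 and 3.71.

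Of the 6 other orphan receptors, Nr2c1 and Nr2c2, which encode the testicular receptors TR2 and TR4, lay between 6.90 and 7.22 and between 6.83 and 7.18. Nr2f6 lay between 6.31 and 6.75 and Nr2f2, which encodes COUP-TFII, between 5.54 and 6.22, while Nr2f1 and Nr6a1 had means under 5. These 6 genes had 3 higher and 3 lower means for canagliflozin against HFD control, 5 higher and 1 lower for caloric restriction against HFD control, and 2 higher and 4 lower for canagliflozin against caloric restriction. Of 8 measured nuclear receptor genes outside the 38 listed, 3 were higher and 5 lower, 4 higher and 4 lower, and 3 higher and 5 lower in the same 3 comparisons.

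Members also differed in how far mice of 1 arm lay apart. The median within-group SD was 0.166 over the 37 members and 0.178 over all genes. Nr1d1 (0.507), Nr0b2 (0.472), Pparg (0.471), Nr4a1 (0.419) and Esr1 (0.407) lay in the top 5% of all genes. At the other end Nr4a3, Nr2c1, Nr1h4, Nr3c1, Nr2c2, Rxra and Nr1d2 lay in the lowest 10%, with SDs from 0.102 to 0.114. Of these, Nr4a3 had a mean under 5.

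**Figure D4:**
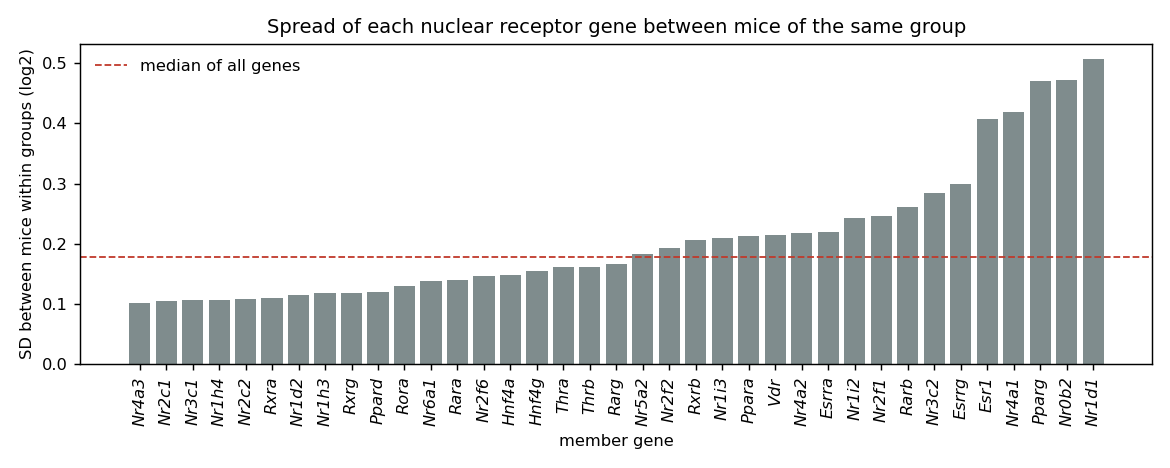
Within-group SD (log2) of each of the 37 nuclear receptor genes, pooled over the 3 arms (14 arrays), as bars from 0, with a dashed line at the median of all genes (0.178). Nr1d1, Nr0b2, Pparg, Nr4a1 and Esr1 stand above 0.4.

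Because receptors varied between mice within an arm, 8 relations between a receptor and a partner or target were computed on deviations from the group means over 14 arrays, with a two-sided exact permutation within groups (345600 arrangements) and Benjamini-Hochberg adjustment over the 8. None passed 0.05 after adjustment. The closest was Ppara with Cyp4a14, where mice with more Ppara mRNA for their arm had more Cyp4a14 (r = 0.745, exact p = 0.00911, adjusted p = 0.0729). The rank correlation rho was 0.666 (exact p = 0.0207, adjusted p = 0.166). Without the 2 arrays farthest from the median of Ppara, canagliflozin replicate 2 and caloric restriction replicate 3, r was 0.692 (exact p = 0.0355). The same 2 arrays deviated farthest from the group mean, and leaving out such arrays gave an adjusted exact p of 0.284. Among all genes, 0.821% had a correlation with Ppara at least as far from 0, which is given as a description. The relation had an adjusted exact p of 0.0374 without canagliflozin replicate 2, 0.0462 without replicate 4 and 0.0388 without replicate 5. With the position of the array in the deposited order removed, the adjusted exact p was 0.0273. It was up to 0.212 over leaving out each array. Its r was 0.603 without caloric restriction replicate 3. On values with the group means kept, r was 0.468 and the adjusted permutation p was 0.278.

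Nr1d1 and its target Arntl had r = -0.539 (exact p = 0.0982, adjusted p = 0.292, rho = -0.547, exact p = 0.0765), and r = -0.345 without canagliflozin replicate 1 and caloric restriction replicate 2. Arntl measured 4.71, 5.17, 5.93, 5.91 and 4.88 under canagliflozin, 5.48, 4.88, 4.57, 6.70 and 5.42 under caloric restriction, and 4.77, 5.09, 4.91 and 4.99 in HFD controls. Its highest array, caloric restriction replicate 4, is also the lowest for Nr1d2. Nr1d1 and Nr1d2 themselves had r = 0.214 (exact p = 0.55, adjusted p = 0.733, rho = 0.103, exact p = 0.754) and 0.197 without the same 2 arrays.

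In the bile acid loop, Nr1h4 and Nr0b2 had r = -0.463 (exact p = 0.146, adjusted p = 0.292, rho = -0.49, exact p = 0.132), and r = -0.402 without the 2 farthest arrays. Nr0b2 and Cyp7a1, the first enzyme of the classical bile acid pathway and a gene that SHP represses, had r = -0.476 (exact p = 0.131, adjusted p = 0.292, rho = -0.402, exact p = 0.233), and r = -0.427 without the 2 arrays of farthest Nr0b2 value, canagliflozin replicates 4 and 5. It was -0.263 without canagliflozin replicate 1 alone, and -0.228 without the 2 arrays of farthest deviation from the group mean, canagliflozin replicate 1 and HFD control replicate 2, a pair chosen after the data were seen, so its size rests on these arrays. Cyp7a1 averaged 11.18 ± 0.60 under canagliflozin, 10.96 ± 0.52 under caloric restriction and 10.76 ± 0.51 in HFD controls (SD, n = 5, 5 and 4). Canagliflozin replicate 1 had the highest Nr0b2 and the lowest Cyp7a1 of its arm.

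The other 3 relations had adjusted p of 0.733 or above, and each changed sign when some pair of arrays was left out. Nr4a1 and Nr4a3 had r = 0.095 (exact p = 0.824, adjusted p = 0.833, rho = -0.029, exact p = 0.931), which was -0.539 (exact p = 0.0413) without HFD control replicate 1 and canagliflozin replicate 4, and -0.316 without canagliflozin replicate 4 alone, so its sign rests on that array. Nr1i3 and Cyp2b10, the classical CAR target, had r = -0.055 (exact p = 0.833, adjusted p = 0.833, rho = 0.033, exact p = 0.915) and 0.227 without the 2 arrays of farthest Nr1i3 value. Cyp2b10 averaged 4.01 under canagliflozin, 4.43 under caloric restriction and 4.16 in HFD controls, near the array medians, with caloric restriction replicate 1 at 6.33. At such levels a low r says little about this target. Nr3c1 and Fkbp5, a glucocorticoid-induced chaperone partner, had r = 0.222 (exact p = 0.484, adjusted p = 0.733, rho = 0.42, exact p = 0.181) and -0.121 without the 2 arrays of farthest Nr3c1 value. When the 2 arrays with the farthest deviation from the group mean were left out, a check chosen after the data were seen, r was -0.107 for Nr4a1 with Nr4a3, -0.102 for Nr1i3 with Cyp2b10 and 0.437 for Nr3c1 with Fkbp5. At 14 arrays these relations could not be told from 0.

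**Figure D5:**
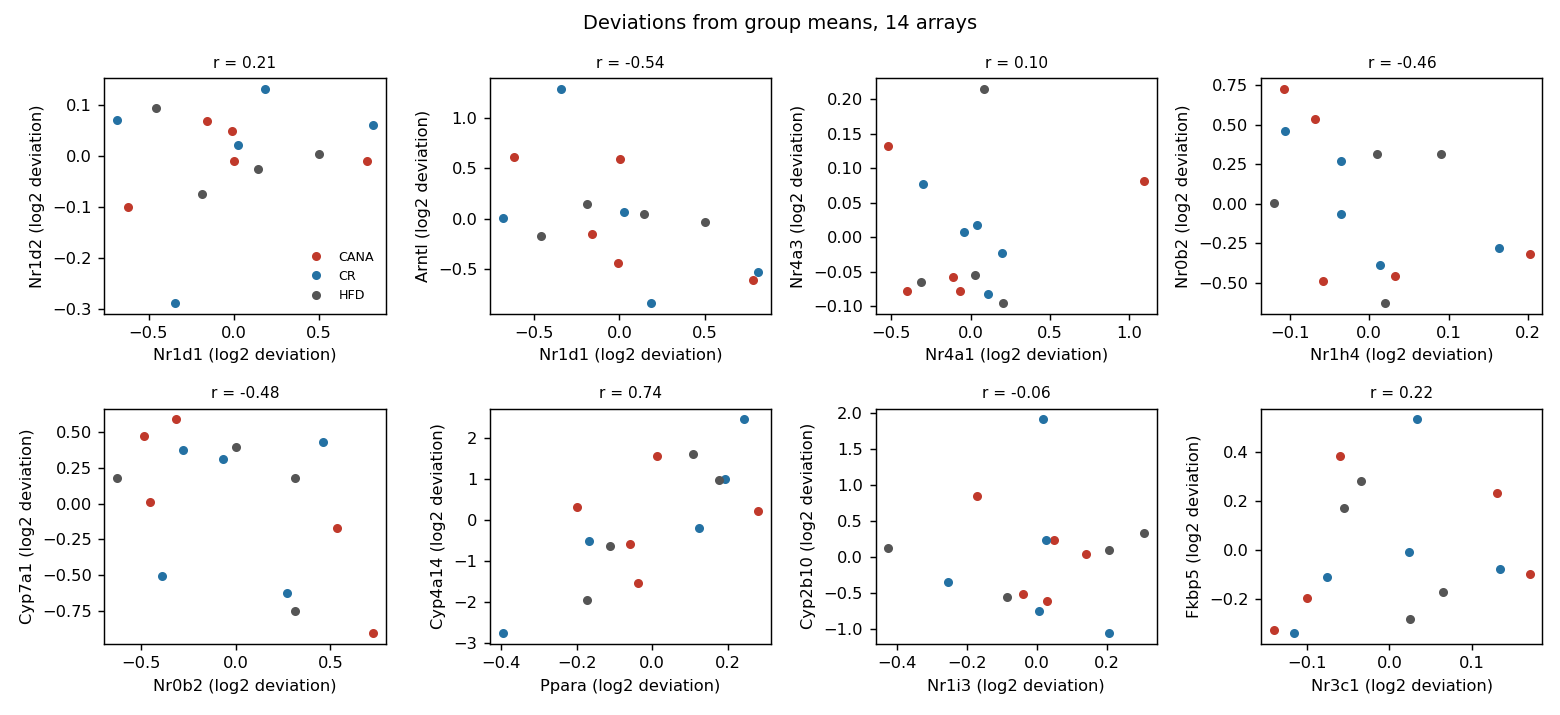
Deviations from the group mean (log2) of a receptor gene (x axis) and a partner or target gene (y axis) in 8 panels, with 1 point per array coloured by arm (canagliflozin, caloric restriction, HFD control; 14 arrays) and Pearson's r above each panel. Ppara and Cyp4a14 have r = 0.745, and the other 7 panels lie between -0.539 and 0.222.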

How the data were processed

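Values are log2 signals for each probe set as deposited, computed by the authors through RMA (Affymetrix Expression Console), as the submitters' processing notes list. RMA subtracts background, brings all arrays to 1 distribution and combines probes, so a global difference in RNA content would not be seen. Liver total RNA was isolated with TRIzol and 250 ng was labelled, per the labels' protocols. Neither the genome build of the probe sets nor the software version is given in the sources used here.

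Of 41345 probe sets, 23521 had 1 gene symbol, 1814 several and 16010 none in the platform annotation. Each gene was read from the probe set with exactly 1 symbol and the highest mean, giving 22180 genes, of which 1082 had several such probe sets. All were tested without a filter.

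Group means were fitted to the 14 arrays with limma 3.58.1 (lmFit and eBayes) in R 4.3.3, with Benjamini-Hochberg adjustment over 22180 genes per comparison and a threshold of 0.05. Groups were taken from the titles. Array data carry no sequencing depth, so precision depends on the number of arrays. The fit was run on simulated data to check that set differences were returned at their size. Its power to call such differences is not reported here.

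The members, roles, lists and relations were chosen with earlier results of these data known. Array values were due for members with an unadjusted p under 0.05 or a difference of at least 0.58, and for 13 receptors fixed by name, which gave 14 members. Up to 3 genes per list and comparison with the smallest unadjusted p under 0.05 were named. The lists cover coregulators, ligand enzymes and carriers, other nuclear receptors and targets of PPARα, LXR, FXR and SHP, CAR and PXR, the glucocorticoid and thyroid hormone receptors, the clock loop, HNF4A, and retinoic acid and vitamin D. Alternatives were a fit of 2 groups, filters at a mean of 5 or 6, cyclic loess, median centring, array weights, a trended robust variance, the replicate block, the mean of probe sets, deposited position, a threshold of 0.10 and leaving out each array.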

Additional observations from a re-analysis of the deposited data

Results flagged for a closer look

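In 7 of 126 groups of 4 or 5 arrays that were checked, 1 array lay apart from the others by Dixon's test, where chance flags about 1 in 20 groups. Under canagliflozin, replicate 4 stood apart for Nr4a1, at 6.25 with the other arrays from 4.64 to 5.09, and for Nr3c2, at 5.01 with the others from 5.63 to 5.87. Under caloric restriction, replicate 4 stood apart for Nr1d2, at 7.69 with the others from 8.0 to 8.11, and for Hnf4g, at 3.14 with the others from 3.32 to 3.39. Caloric restriction replicate 3 stood apart for Nr2c1, at 6.93 with the others from 7.12 to 7.20, and for Rxrg, at 4.00 with the others from 4.21 to 4.29. Among HFD controls, replicate 3 stood apart for Nr4a3, at 3.71 with the others from 3.40 to 3.44.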

How the results depend on the processing

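The count of nuclear receptor genes past the threshold was 0 in each of the 3 comparisons under all 20, 20 and 21 alternatives run. For the 14 members chosen for array values, 848 values were computed under an alternative, of which 0 passed the threshold and 61 took the opposite sign. Of these values, 0 moved by more than the within-group SD, a size that leaving out 1 array can hardly reach. The fit of 2 groups, the filters, the trended robust variance and the threshold of 0.10 leave a difference unchanged by construction. Signs also changed among the other members. Esr1 for caloric restriction against HFD control was 0.053, and -0.132 without caloric restriction replicate 4. Over all genes, the count for canagliflozin against HFD control was 1 when genes with a mean under 5, or under 6, were left out and 1 with the deposited position as a covariate, and 0 to 12 over leaving out each array, the 12 arising without canagliflozin replicate 3. For caloric restriction against HFD control it was 1 with the deposited position. For canagliflozin against caloric restriction it was 0 in a fit of these 2 groups, 0 with a mean of at least 6, 2 with the replicate block, and 0 to 16 over leaving out each array, the 16 arising without canagliflozin replicate 3. The number of relations past the threshold was 1 with the deposited position removed and 0 to 1 over leaving out each array, and was Ppara with Cyp4a14 each time. It was 0 without the 2 arrays of farthest deviation from the group mean, an alternative chosen after seeing the data. Without canagliflozin replicate 4, Nr4a1 with Nr4a3 had r = -0.316. The cause of these shifts was not tested. Samples with the same replicate number deviated together weakly at most (r from -0.089 to 0.198 over 13 pairs, 3 of them over 0.1). Their median r was 0.05, against -0.0185 for other pairs from different groups. Whether the numbers pair the samples cannot be told from these values, and the replicate block left 0 members past the threshold. Filters at a mean of 5 or 6 leave out dim members such as Hnf4g. Signal over background was not analysed here.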
